A study of Rattus norvegicus with 26 samples.

Results

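The clonal rMAPC lines Cl19 and 3c3 were compared for how their transcripts changed between d0 and d6 of culture with TGFβ1 and PDGF-BB. A difference of changes was calculated for each probe as the change from d0 to d6 in Cl19 minus that in 3c3, on quantile-normalized log2 intensity and within slides, and the genes that responded in 1 line or moved in opposite directions are described. The comparison uses 12 of the 26 arrays of the series, with 3 arrays per line and day. The other arrays hold d2 and d4 of both lines (12 arrays) and primary smooth muscle cells (SMCs, 2 arrays). They were normalized together with the 12 and otherwise serve only as context. Both lines are Oct4-expressing multipotent adult progenitor cells from bone marrow of female Fischer rats. The labels give the age as 3 weeks for Cl19 and E18 for 3c3. Cells of both lines received the same growth factors in basal rMAPC medium, which the methods describe as without serum, and no arrays of untreated cells at d6 were analysed here. Each line is a single clone, so a difference between the lines is a difference between 2 clones and cannot be extended to the age or origin of the cells. The labels number the replicates but do not say whether they were separate cultures, so p-values measure the spread between these arrays.

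TGFβ1 binds type I and type II receptor kinases that phosphorylate Smad proteins, and PDGF-BB activates the PDGF receptor tyrosine kinases. In the paper, TGFβ1 drove rMAPCs towards SMCs alone or combined with PDGF-BB, which it ties to SMC proliferation and migration. Rat MAPCs express Oct4 together with transcription factors of primitive endoderm such as Gata4, Gata6 and Sox17. The paper followed their commitment to SMCs by contractile transcripts and proteins, and reported that Oct4 fell.

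Both lines gained contractile transcripts and lost Oct4, but not every marker moved that way. Tagln, which encodes the contractile marker SM22α, rose by 6.54 ± 0.18 log2 units (SE, n = 3) in Cl19 and 5.95 ± 0.18 in 3c3. The difference of 0.59 ± 0.25 did not pass the test (limma adjusted p = 0.155). Pou5f1 (Oct4) fell in both lines, from 10.31, 10.31 and 10.22 to 0.53, 2.00 and 0.85 in Cl19, where only 1 of the 3 arrays on d6 was still well above background, and from 11.47, 11.63 and 11.49 to 6.82, 7.49 and 7.97 in 3c3. The decrease was larger in Cl19 (adjusted p = 0.001). Of the other cell types that could be present, blood markers were mixed. Ptprc and Spi1 were each well above background on 1 array of d6 in Cl19. Neither was on any of the 9 arrays of d0 in both lines and d6 in 3c3. Laptm5 and Csf1r were above it on all arrays of these groups (d0 means of 3.98 and 4.30 in Cl19, 4.13 and 3.93 in 3c3). The endothelial markers Pecam1 and Tie1 and the epithelial markers Cdh1, Epcam, Krt8, Krt18 and Krt19 were also measured in both lines on d0. In bulk RNA, a change in the share of cells and a change in RNA per cell cannot be told apart.

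Of 23103 probes tested, 4814 had a d6 change that differed between the lines (20.8%, limma on 6 slide differences, adjusted p below 0.05). The change was higher in Cl19 for 2272 probes (9.83%) and lower for 2542 (11%). Within Cl19, 24.5% of probes rose and 36.7% fell from d0 to d6, and within 3c3, 22.2% rose and 35.7% fell. The median change over all tested probes was −0.22 in each line and the median difference was 0.04. Quantile normalization gives all arrays 1 distribution, so a shift of a whole line against the other cannot be seen on this scale. Of the 4814 probes, 1664 passed the test in both lines with the same sign and differed in size, and 1052 others lay between the classes that follow.

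The classes were set by size and test. A probe responded in 1 line only when it changed there by at least 1 log2 unit past the threshold, changed by less than 0.5 without passing the threshold in the other line, and passed the test of the difference. It moved in opposite directions when it passed the threshold with opposite signs in the lines and passed the test of the difference. Cl19 alone responded at 516 probes that rose (2.23%) and 495 that fell (2.14%). 3c3 alone responded at 304 probes that rose (1.32%) and 152 that fell (0.658%). Another 414 probes fell in Cl19 and rose in 3c3 (1.79%), and 217 rose in Cl19 and fell in 3c3 (0.939%). The split of the opposite probes depends on scaling: without normalization between arrays it was 389 against 98. Of these, 293 and 69 were among the 414 and the 217. The 3 slide changes of a line lay wholly above or below those of the other for every probe of these 6 classes and for 40.5% of all tested probes. The classes were chosen by a test on the same slide changes, so nothing is read from this. The negative controls of 3c3 replicate 3 were brighter than those of the other slides (mean minus background of 10.6 on d0 and 14.2 on d6, against 0.143 to 5.0 on the other 10 arrays of d0 and d6). Without this slide, 300 probes fell in Cl19 and rose in 3c3 and 134 did the reverse.

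**Figure D1:**
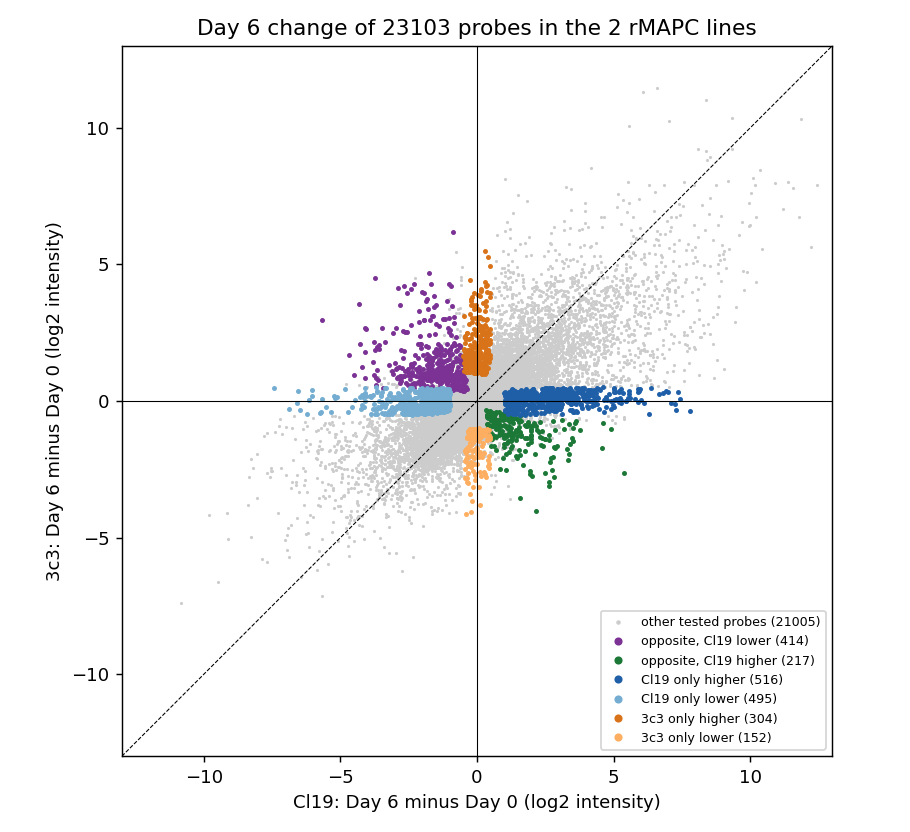
Change from d0 to d6 in log2 intensity of each of 23103 tested probes in Cl19 (x axis) and 3c3 (y axis), each the mean of 3 slides. Colours mark the 6 classes, grey the other probes, and the dashed line equal changes. The 414 probes that fell in Cl19 and rose in 3c3 fill the upper left and the 217 that did the reverse the lower right.

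Opposite changes were frequent among interferon-inducible and antigen presentation genes, which encode the immunoproteasome, the peptide transporter TAP, class I molecules and antiviral proteins. Of the 27 tested genes of this list, the difference was lower in Cl19 for 19 and higher for 2, against 13.2% and 11.5% of the 11173 genes tested with 1 probe each, and its median was −1.88 against 0.04. In Cl19, 17 of the 27 fell and 6 rose, and in 3c3 1 fell and 19 rose. Over all 11173 genes, 4061 fell and 3134 rose in Cl19, and 3865 fell and 2911 rose in 3c3. Opposite movement past the threshold in both lines was found for 10 of the 27 list genes, all of which fell in Cl19 and rose in 3c3. Over all genes it was found for 366 of 11173, of which 240 fell in Cl19 and rose in 3c3.

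Psmb8, a catalytic subunit of the immunoproteasome, measured 8.10, 7.85 and 8.29 log2 intensity on d0 of Cl19 and 4.63, 4.50 and 4.70 on d6. In 3c3 it measured 5.65, 5.95 and 5.95 on d0 and 8.79, 8.06 and 8.67 on d6. No d6 array overlapped its d0 arrays in either line, and the order of the lines was reversed. The decrease was 11.1-fold in Cl19 and the increase 6.31-fold in 3c3, with a difference of −6.13 ± 0.29 (adjusted p = 0.000177). Its partner subunit Psmb9 fell by 2.56 ± 0.25 in Cl19 and rose by 2.52 ± 0.25 in 3c3. Tap2, a subunit of the peptide transporter, went from 9.25, 9.29 and 9.16 to 7.84, 7.18 and 7.56 in Cl19 and from 8.23, 8.30 and 8.29 to 11.08, 11.48 and 11.19 in 3c3. These groups did not overlap either, and the difference was −4.68 ± 0.24 (adjusted p = 0.000194). Tapbp, which loads peptides onto class I molecules, fell by 0.83 ± 0.13 in Cl19 and rose by 2.11 ± 0.13 in 3c3. B2m, the invariant chain of class I molecules, was bright throughout and moved less, by −1.34 ± 0.13 and 1.11 ± 0.13, with the 3 other B2m probes also past the test in the same direction. The antiviral gene Ifi44 went from 6.13, 6.11 and 6.61 to 2.07, 2.63 and 1.23 in Cl19, where 1 of 3 arrays on d6 was well above background, and from 3.31, 3.09 and 1.71 (2 of 3 above) to 6.31, 6.01 and 6.48 in 3c3.

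Irf7, a transcription factor of the interferon pathway, moved with smaller steps, a decrease of 0.57 ± 0.13 in Cl19 and an increase of 1.41 ± 0.13 in 3c3. Not all genes of the list followed. Gbp2, an interferon-inducible GTPase, rose by 5.81 in Cl19 and 2.92 in 3c3, and the GTPase Mx2 was dim on d0 of both lines, with 3 arrays above background on d6 of Cl19 and 1 on d6 of 3c3. Restricted to probes above background on all 12 arrays, the list held 16 lower and 1 higher of 22, and without 3c3 replicate 3 it held 15 lower and 1 higher of 27. Leaving out 1 slide at a time gave 14 to 18 lower and 1 or 2 higher. Among blood cell markers, which would accompany immune cells, Ptprc and Spi1 were above background on none of the 6 arrays of 3c3, Laptm5 had a change of −0.14 there and Csf1r rose by 6.24. Their part in the result was not tested.

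**Figure D2:**
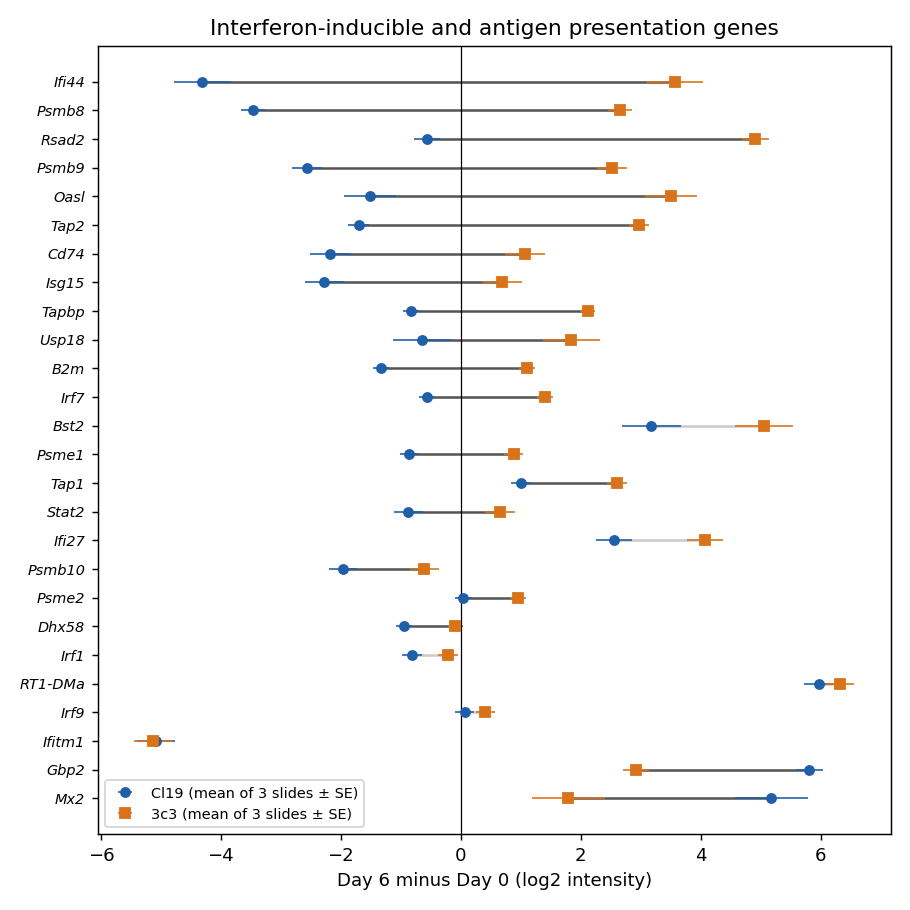
Change from d0 to d6 in log2 intensity (x axis) of 26 of the 27 tested genes of the interferon and antigen presentation list (y axis), in Cl19 (circles) and 3c3 (squares) as the mean of 3 slides ± limma SE. Dark connecting lines mark the 20 genes drawn whose difference passed the test, and 10 of these lines cross 0 with both ends past the threshold.

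The promoters of these genes are shown because many hold the core of the interferon-stimulated response element, the motif that interferon regulatory factors bind. A pair of GAAA with any 2 bases between them was searched on both strands, overlapping matches included, in the 300 bases from 250 before to 50 after each gene's start in RefSeq on GRCr8. Of the 19 list genes with a lower difference in Cl19, 15 had a promoter in the table and 10 held the motif (66.7%). This was near the share of the whole list, 13 of 21 promoters of its tested genes (61.9%). The share was 3.02% over the 9143 promoters of all genes tested and 4.12% over all 27457 promoters. Genes of the class that fell in Cl19 and rose in 3c3 held it in 19 of 214 promoters (8.88%), and those of the reverse class in 3 of 111 (2.70%). These shares are descriptions, and the list is one of genes known for this element. The sequences below are the stretches before the start of the 5 list genes of opposite direction with a match there, on the strand of the gene, with the matches in capitals. They are Ifi44 at chr2:243303841-243303906, Tap2 at chr20:4652297-4652377, Tapbp at chr20:4967878-4967943 and Irf7 at chr1:205800043-205800132, all on the minus strand, and B2m at chr3:129549140-129549229 on the plus strand.
Ifi44: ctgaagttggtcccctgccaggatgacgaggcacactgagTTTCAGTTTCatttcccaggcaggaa
Tap2: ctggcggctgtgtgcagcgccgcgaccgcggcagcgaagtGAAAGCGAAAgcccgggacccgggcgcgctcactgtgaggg
Tapbp: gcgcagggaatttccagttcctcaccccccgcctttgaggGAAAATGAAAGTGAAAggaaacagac
B2m: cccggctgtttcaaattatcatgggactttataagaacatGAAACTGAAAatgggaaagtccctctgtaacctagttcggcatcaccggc
Irf7: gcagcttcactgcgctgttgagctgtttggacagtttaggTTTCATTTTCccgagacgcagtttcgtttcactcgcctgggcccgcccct

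Outside that list, the largest opposite change with lower values in Cl19 was that of Aqp8, which encodes a water channel (probe at chr1:182336005-182336751 on rn4). It measured 11.50, 12.03 and 11.85 on d0 and 5.30, 5.87 and 7.19 on d6 of Cl19, and 7.71, 7.34 and 7.11 on d0 and 9.99, 10.14 and 10.96 on d6 of 3c3. The groups of each line did not overlap, and the difference was −8.64 ± 0.56 (adjusted p = 0.00034). Genes named for their class were chosen by the size and separation of these same changes, so neither is further support. Svs4, a secretory protein of the seminal vesicle, fell by 3.72 ± 0.65 in Cl19 and rose by 4.51 ± 0.65 in 3c3. Tesc, a calcium-binding protein, went from 10.63, 10.54 and 10.76 to 7.61, 7.89 and 7.76 in Cl19 and from 8.09, 8.12 and 8.56 to 12.37, 12.30 and 12.51 in 3c3. Pi16, a peptidase inhibitor, fell by 4.29 ± 0.20 in Cl19 and rose by 2.10 ± 0.20 in 3c3.

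Among genes that were not measured above background in a group, C1r, a protease of the classical complement pathway, was above background on 2 of 3 arrays on d0 and on none on d6 of Cl19, and on none on d0 and all 3 on d6 of 3c3. Its decrease in Cl19 was at least 2.11-fold and its increase in 3c3 at least 3.41-fold. The first bound rested on replicate 1 (5.08 on d0, against 2.35 and 1.74 on the other arrays) and was 1.27-fold without it. Cav1, the structural protein of caveolae, had a decrease of at least 2.38-fold in Cl19 (3.57-fold without replicate 1) and an increase of at least 9.60-fold in 3c3, and the same class was found with both other Cav1 probes. In each of these bounds, the dim group is set at the lowest signal well above background on its arrays or at its own value where that is higher.

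In the reverse direction, Sik1, a salt-inducible kinase, measured 6.94, 7.08 and 6.94 on d0 and 11.74, 11.76 and 11.14 on d6 of Cl19, and 9.77, 9.33 and 9.33 on d0 and 8.43, 7.31 and 7.52 on d6 of 3c3. It rose 23.6-fold in Cl19 and fell 3.31-fold in 3c3, with no overlap within a line and a difference of 6.29 ± 0.26 (adjusted p = 0.000149). Serpine2, an inhibitor of thrombin and plasminogen activators, went from 4.63, 4.89 and 5.0 to 7.02, 7.29 and 7.65 in Cl19 and from 7.48, 7.55 and 7.85 to 5.16, 4.60 and 5.27 in 3c3. The d6 level of each line thus lay near the d0 level of the other. Elavl2, an RNA-binding protein best known from neurons, rose by 2.62 ± 0.42 and fell by 2.96 ± 0.42, and Myh14, a nonmuscle myosin heavy chain, rose by 3.32 ± 0.40 and fell by 2.15 ± 0.40. A second probe of each of these 3 genes was in the same class.

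Jakmip1, which binds microtubules, was not above background on d0 of Cl19 and rose at least 12.6-fold (8.33-fold without replicate 3, 19.8-fold without replicate 2), while in 3c3 it went from 4.56, 4.75 and 4.46 to 3.93, 0.54 and 1.43 with 1 of 3 arrays above background on d6. Adh6a, an alcohol dehydrogenase, rose at least 13-fold in Cl19, and none of its 6 arrays in 3c3 was well above background, so its decrease there has no measured size. This was so for a line in 12 of the 217 probes that rose in Cl19 and fell in 3c3, and in 2 of the 414 of the reverse class.

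**Figure D3:**
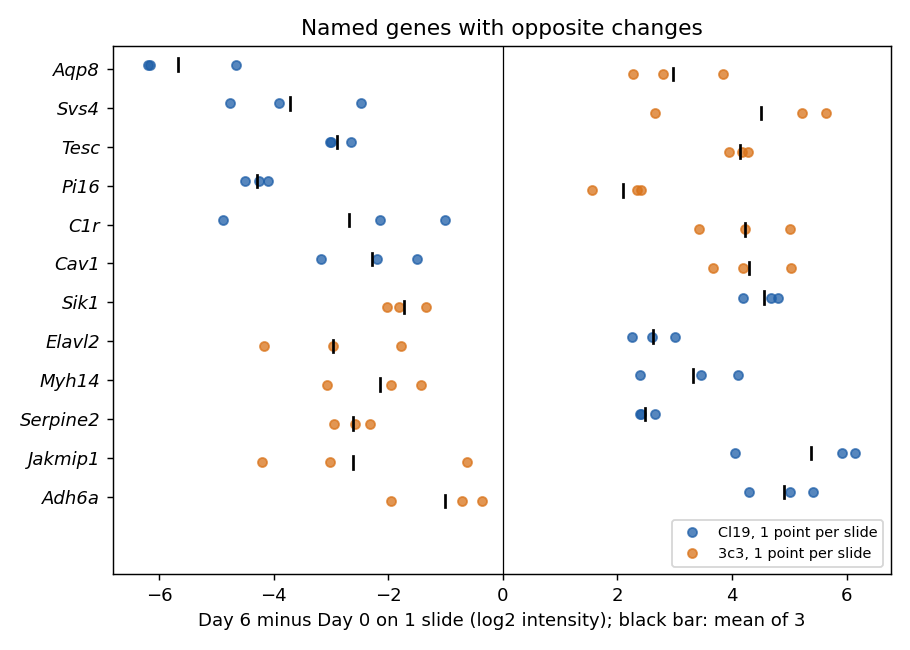
Change from d0 to d6 on each slide (x axis, log2 intensity) for the 12 named genes with opposite changes (y axis), with 1 point per slide and a black bar at the mean of 3. For the upper 6 genes every Cl19 point lies below 0 and every 3c3 point above it, and the lower 6 show the reverse. The genes were chosen by these same slide changes, so the separation follows from the choice. The 3c3 points of Adh6a come from arrays not well above background.

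The levels of the lines lay farther apart on d6 than on d0 in most probes of the opposite classes, and on d0 they already lay farther apart than over all probes. Over all tested probes the median size of the level difference between the lines was 0.17 log2 units on d0 and 0.41 on d6, and it was smaller on d6 for 26.8%. In the class that fell in Cl19 and rose in 3c3 it grew from a median of 0.47 to 2.09 and was smaller on d6 for 47 of 414 probes. Cl19 was the higher line for 338 of these probes on d0 and for 2 on d6. The reverse class grew from 0.38 to 1.91, with Cl19 higher for 43 of 217 probes on d0 and for 216 on d6, and was smaller on d6 for 18. Among the named genes the d0 gap was often wide, as for Aqp8 (means of 11.79 in Cl19 and 7.39 in 3c3) and Sik1 (6.99 and 9.48). The d0 and d6 arrays enter both the changes that chose the classes and these levels. The d6 level difference is the d0 one plus the difference of changes. Its growth and the change of the higher line thus follow in part from the choice, and nothing is read from them. The lines were scanned on separate days, so that line and scan day cannot be told apart for levels. Changes within a line compare arrays that share a slide and a scan day. Every d0 array lay at position 1 of its slide and every d6 array at position 4, so day and position cannot be told apart. The changes of Cl19 and those of 3c3 still come from separate scan days.

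Among the single-line classes, the 516 probes that rose in Cl19 alone had the largest median change, 2.57. Of these, 187 were not well above background on any of the 6 arrays of 3c3, and 201 were above it on all 12 arrays. Tmem54, a transmembrane protein, went from 5.83, 5.63 and 5.76 to 11.11, 11.24 and 11.49 in Cl19 and from 5.85, 5.77 and 5.87 to 6.78, 4.83 and 6.20 in 3c3. The lines overlapped on d0 and did not on d6 (difference 5.43 ± 0.47, adjusted p = 0.000857). Khdrbs3 and Elavl4, RNA-binding proteins with roles in splicing and transcript stability, rose by 5.18 ± 0.37 and 4.10 ± 0.23 in Cl19, with changes of 0.07 and 0.17 in 3c3. A second Elavl4 probe rose in Cl19 too (4.32) and had a larger change in 3c3 (0.54), which put it between the classes. Tpbg, an oncofetal surface glycoprotein, rose by 3.82 ± 0.20. Igfbp5, which binds insulin-like growth factors, was not above background on d0 of Cl19 and measured 7.79, 8.72 and 8.23 on d6, an increase of at least 58.4-fold, and was above background on no array of 3c3. Macc1, a regulator of the receptor gene Met, rose at least 58.9-fold in Cl19 and was above background on 1 array each on d0 and d6 of 3c3.

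Genes that fell in Cl19 alone included abundant secreted and matrix proteins. Htra1, a secreted serine protease, measured 15.65, 15.69 and 15.78 on d0 and 8.17, 8.88 and 9.47 on d6 of Cl19, a 116-fold decrease. In 3c3 it measured 15.59, 15.54 and 15.50 on d0 and 14.93, 15.20 and 15.62 on d6. All 6 arrays of d0 lay between 15.50 and 15.78, and on d6 no array of Cl19 came near those of 3c3. Mfap5, a protein of elastic microfibrils, fell by 6.60 ± 0.22 in Cl19 and changed by −0.07 ± 0.22 in 3c3. Rasl11a, a small GTPase, fell by 6.04 ± 0.46, and Nmnat3, an enzyme of NAD synthesis, by 6.15 ± 0.23, with changes of 0.40 and 0.02 in 3c3. A second Nmnat3 probe fell by 6.30 in Cl19 and had a change of −0.77 in 3c3, between the classes. Siglec5, a sialic acid-binding lectin, fell at least 26.9-fold in Cl19 and changed by 0.18 in 3c3. Tek, the angiopoietin receptor, fell from 6.01, 5.84 and 6.19 to not well above background in Cl19, at least 16.4-fold, while 3c3 held 4.65, 4.98 and 5.01 on d0 and 3.99, 4.81 and 4.70 on d6. Unlike the rising class, only 10 of the 495 probes were dim on all 6 arrays of 3c3, and 387 were above background on all 12 arrays.

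Responses of 3c3 alone were fewer. Ramp1, a coreceptor for the vasodilator CGRP, went from 7.07, 6.69 and 6.61 to 12.09, 12.50 and 12.26 in 3c3 and from 7.59, 7.25 and 7.42 to 7.89, 8.59 and 6.71 in Cl19. The d6 arrays of 3c3 lay above all others (difference −5.19 ± 0.52, adjusted p = 0.00141). Col18a1, the collagen that holds endostatin, rose by 4.25 ± 0.18 in 3c3, Flt1, a VEGF receptor, by 3.83 ± 0.29 and Cpn1, a subunit of carboxypeptidase N, by 3.51 ± 0.34, with changes of 0.37, 0.12 and −0.21 in Cl19. A second probe of each of these 3 genes fell in the same class. Misp, an actin-binding protein of the mitotic cortex, and Cidec, a lipid droplet protein, were not above background on d0 of 3c3 and rose at least 12.3-fold and 6.73-fold.

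The genes that fell in 3c3 alone had the smallest steps, with a median of −1.38 over 152 probes. Pde7a, a cAMP phosphodiesterase, went from 8.41, 8.35 and 8.16 to 6.55, 5.13 and 5.43 in 3c3, and stayed between 7.42 and 7.72 on the 6 arrays of Cl19. Zdhhc23, a palmitoyltransferase, the motor protein Myo5a and the centrosomal protein Ssx2ip fell by 2.16 ± 0.22, 2.00 ± 0.19 and 2.81 ± 0.33 in 3c3. Prkd1, a protein kinase D, fell at least 5.16-fold in 3c3 (7.97-fold without replicate 3), to not well above background, and its second probe lay between the classes. Iqsec2, an exchange factor for ARF GTPases, fell at least 2.28-fold there (3.72-fold without replicate 3). Its second probe did not pass the test of the difference (adjusted p = 0.318), and with normexp background correction or a floor on dim values the difference of the first probe did not pass either.

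The days between showed that several responses called for 3c3 alone on d6 had been present in Cl19 earlier. Col18a1 went from a mean of 9.08 on d0 to 11.71 on d2 (11.58 without Cl19 replicate 1) and 11.37 on d4 in Cl19 and was back at 9.46 on d6, while in 3c3 it stood at 12.17 on d2, 12.22 on d4 and 12.77 on d6. Cpn1 measured 4.72 on d0, 7.57 on d2 (7.66 without that replicate) and 6.45 on d4 in Cl19 and 4.51 on d6. Cidec followed the same course in Cl19, from 3.79 on d0 to 6.75 on d2 (6.91 without it), 4.84 on d4 and 3.54 on d6. These days are given as levels without a test. Of the 304 probes that rose in 3c3 alone, 56 (18.4%) stood at least 1 log2 unit above their d0 mean in Cl19 on d2 or d4 (55 with Cl19 replicate 1) and 18 that far below it. Of all 7496 tested probes with as small a d6 change in Cl19, 3.0% stood that far above and 2.29% below. Among those of the 304 above background on all 12 arrays of Cl19 from d0 to d6, 44 of 280 stood above. The 152 that fell in 3c3 alone held 20 below (25 with Cl19 replicate 1) and 4 above in Cl19. Among those above background on all 12 arrays of Cl19, 9 of 128 stood below. Of the 516 that rose in Cl19 alone, 45 stood that far above d0 in 3c3 and 43 below, and of the 495 that fell, 34 stood below and 40 above, against 3.19% above and 3.63% below of 8021 probes with as small a d6 change in 3c3. Many of the 516 were dim in 3c3. Among those above background on all 12 arrays of 3c3, 8 of 186 of the rising class stood above and 19 of 407 of the falling class below.

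In the opposite classes the median change of 3c3 was the larger in size on d2, and that of Cl19 on d6. In the class that fell in Cl19 and rose in 3c3, the median change of 3c3 was 0.62 on d2, 0.84 on d4 and 1.09 on d6, whereas that of Cl19 was −0.15 on d2, −0.90 on d4 and −1.36 on d6. Cl19 replicate 1 on d2 stood apart from the other d2 arrays of its line, and without it the d2 median was −0.27. In the reverse class the medians were −0.55, −0.88 and −1.01 in 3c3 and 0.09 (0.13 without that array), 0.62 and 1.18 in Cl19. For the 1664 probes that moved the same way in both lines, medians were taken only over rising and falling probes together. Such a median depends on the mix of signs, so the timing of the lines cannot be compared for these probes. Aqp8 of Cl19 was at 11.70 on d2 (12.53 without replicate 1), against 11.79 on d0, and at 8.23 on d4, when 3c3 had reached 9.79 and 10.89. Sik1 of 3c3 had gone from 9.48 to 7.49 by d2.

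**Figure D4:**
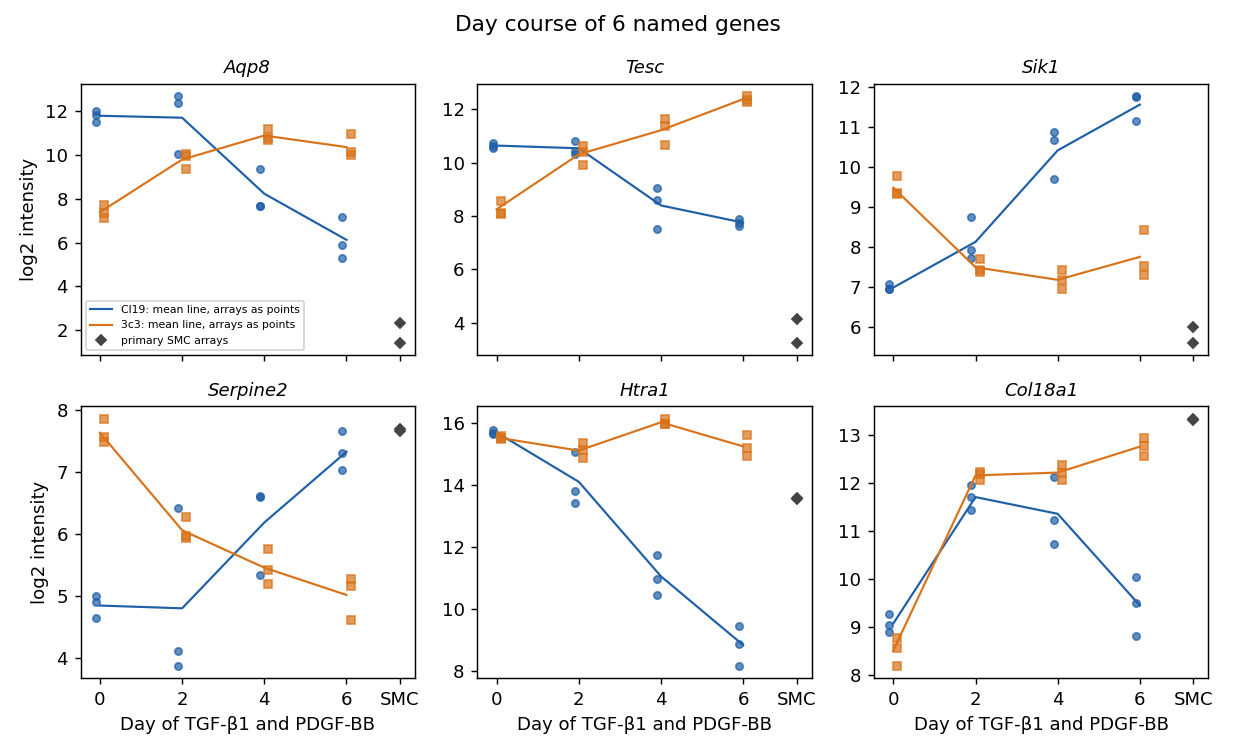
Levels (y axis, log2 intensity) of 6 named genes on d0, d2, d4 and d6 (x axis) in Cl19 (circles) and 3c3 (squares), with 1 point per array and a line through the mean of 3 arrays, and on the 2 primary SMC arrays (diamonds). The lines of Aqp8, Tesc, Sik1 and Serpine2 cross between d0 and d6, Htra1 parts from d2, and Col18a1 is higher in both lines on d2 and returns in Cl19 by d6.

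Primary SMCs were scanned apart from both lines, and their levels are given without a test against them. Probes of the class that fell in Cl19 and rose in 3c3 were above background on each of the 2 SMC arrays for 65.0%, those of the reverse class for 65.0%, and those that rose in Cl19 alone for 53.5%, compared with 70.2% of all tested probes. Ramp1 and Col18a1, which rose in 3c3 alone, were bright there (means of 14.13 and 13.34), and so were Tpbg (11.07), which rose in Cl19 alone, and Htra1 (13.56), which fell in Cl19 alone. Elavl2, Macc1 and Aqp8 were not above background on either array.

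Endothelial genes formed the other list with mostly lower differences in Cl19. Of 13 tested, the difference was lower in Cl19 for 9 and higher for 1 (69.2% and 7.69%, against 13.2% and 11.5% of all genes). Its median was −2.17 against 0.04 over all genes, and it was lower for 4 of the 5 above background on all 12 arrays. Tie1, an angiopoietin receptor-like kinase, went from 5.74, 4.92 and 5.10 to 3.98, 2.60 and 3.55 in Cl19 and from 4.89, 4.81 and 4.71 to 5.99, 6.59 and 6.46 in 3c3. Vwf, the von Willebrand factor, fell by 1.21 ± 0.18 and rose by 0.96 ± 0.18. Tek, the receptor that fell to background in Cl19, had a change of −0.38 ± 0.16 in 3c3. Plvap, a protein of endothelial fenestrae, rose in both lines and more in 3c3 (7.53 ± 0.46 against 1.5 ± 0.46). Flt4, the lymphatic VEGF receptor, was the exception and was above background only on d6 of Cl19. The defining markers were not all of this kind: Pecam1 fell in both lines, Cdh5 had group means from 2.54 to 3.17 and Kdr from 2.01 to 2.71.

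Primitive and visceral endoderm genes held 12 lower and 3 higher of 28 (median −1.17), and part of this was a larger loss in Cl19. The counts in this paragraph are read against 13.2% lower and 11.5% higher over all genes. Gata4 fell by 2.51 ± 0.18 in Cl19 and changed by −0.48 ± 0.18 in 3c3, and Gata6 fell by 3.31 ± 0.29 and 1.47 ± 0.29. The apolipoprotein gene Apoa1 rose in both lines and more in 3c3, from 3.39, 3.25 and 3.53 to 9.54, 9.0 and 9.85 in Cl19 and from not well above background to 11.51, 12.66 and 13.05 in 3c3. Apob went the other way, with fitted changes of 12.22 in Cl19 and 5.66 in 3c3. It was not above background on d0 of either line, and the increases were at least 1908-fold and 15.9-fold. Integrin and laminin genes held 10 lower and 2 higher of 25 (median −0.57). The laminin chain gene Lama4 fell by 2.09 ± 0.53 in Cl19 and rose by 2.40 ± 0.53 in 3c3, and the integrin gene Itga6 fell by 1.66 ± 0.34 and rose by 1.11 ± 0.34. Complement and coagulation genes held 11 lower and 4 higher of 25 (median −0.69). The higher ones numbered 1 without Cl19 replicate 1 and 2 without Cl19 replicate 2 or 3c3 replicate 2. They included C3, the central complement component, which went against most of its list, with an increase of 1.97 ± 0.26 in Cl19 and a decrease of 1.02 ± 0.26 in 3c3.

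Wnt pathway genes leaned to Cl19, with 15 higher and 1 lower of 30 and a median of 1.2. Over all genes, 11.5% were higher and 13.2% lower. The Wnt genes rose in Cl19 for 17 of 30 and in 3c3 for 10, against 3134 and 2911 of all 11173 genes. The ligand Wnt5b went from 2.80, 2.42 and 3.38 to 11.74, 12.52 and 11.13 in Cl19 and from 2.76, 2.59 and 3.18 to 8.72, 6.20 and 6.82 in 3c3. The receptor Fzd1 went from 5.70, 5.95 and 6.04 to 9.13, 9.29 and 9.32 in Cl19 and had a change of −0.02 ± 0.31 in 3c3. Lef1, a nuclear effector of the pathway, was above background only on d6 of Cl19. The 15 became 9 without Cl19 replicate 1, 10 without Cl19 replicate 2 and 10 without a filter on dim probes. The methods' t-test with Benjamini-Hochberg adjustment counted 5, and 8 of 17 passed limma's test among genes above background on all 12 arrays. Epithelial junction and keratin genes held 18 higher and 4 lower of 41 (median 0.74), and most were differences of size, as 38 of them rose in Cl19 and 31 in 3c3. Leaving out 1 slide at a time gave 15 to 17 higher and 1 to 4 lower, with 1 lower without Cl19 replicate 1 or 2 and 2 without Cl19 replicate 3 or 3c3 replicate 2. Rab25, a GTPase of epithelial recycling endosomes, rose by 7.69 against 1.85 in 3c3, and Grhl2, a transcription factor of epithelia, by 7.16 against 2.14, whereas the keratin gene Krt19 rose more in 3c3 (1.06 ± 0.32 against 4.22 ± 0.32).

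The share of smooth muscle contractile genes with a difference was near that of all genes. Of 24, the difference was higher in Cl19 for 5 (Synm, Myl9, Cald1, Cnn1 and Pdlim7) and lower for 1 (Fhl1), 20.8% and 4.17% against 11.5% and 13.2% of all genes, with a median of 0.51. Of the 24, 20 rose in Cl19 and 19 in 3c3, against 3134 and 2911 of all 11173 genes. Synm, the intermediate filament protein synemin, was not above background on d0 of Cl19 and rose at least 41.9-fold. The 5 became 2 without Cl19 replicate 2 or 3c3 replicate 3 and 3 without Cl19 replicate 1 or 3. TGF-β pathway genes were split, with 6 higher (3 without Cl19 replicate 2 or 3c3 replicate 3) and 6 lower of 28. Pmepa1 and Tgfbi, both TGF-β targets, rose by 5.55 ± 0.27 and 9.43 ± 0.57 in Cl19, against 1.41 ± 0.27 and 2.89 ± 0.57 in 3c3. Tgfbi was not above background on d0 of 3c3, where its increase was at least 2.29-fold. Inhba, the activin A subunit, rose by 1.22 ± 0.36 in Cl19 and at least 14.7-fold in 3c3 (7.99-fold without replicate 2, 22.1-fold without replicate 3). Collagen and elastic fibre genes held 11 higher and 9 lower of 29 (median 0.04), but 2 higher and 8 lower of the 15 above background on all 12 arrays (median −1.16). Fibrillar Col1a1 rose more in Cl19 (7.27 ± 0.38 against 3.53 ± 0.38), and basement membrane Col4a1 fell by 2.40 ± 0.17 in Cl19 with a change of −0.26 ± 0.17 in 3c3. Genes of PDGF, FGF and IGF signaling held 10 higher and 7 lower of 27, among them Igf1r, which rose by 6.69 ± 0.27 and 3.25 ± 0.27. The 10 became 3 without 3c3 replicate 3, 4 without Cl19 replicate 1 or 2 and 5 without Cl19 replicate 3 or 3c3 replicate 2, and the 7 became 4 without Cl19 replicate 3. Without a filter on dim probes 4 were higher and 5 lower.

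The counts of the smaller lists are read against 11.5% higher and 13.2% lower over all genes. Cilium genes held 5 higher and 1 lower of 15, BMP and Id genes 6 and 4 of 21, chemokine and cytokine genes 6 and 5 of 20, mesendoderm and cardiac genes 4 and 4 of 19, pluripotency genes 4 and 4 of 15, Notch genes 3 and 3 of 16, and mesenchymal switch genes 2 and 1 of 11. Metallothionein and oxidative stress genes held 2 higher and 6 lower of 23, glycolysis and hypoxia genes 2 and 3 of 34, and CDK inhibitors, D cyclins and p53 targets 4 and 4 of 23. Each of the 6 slides, when left out, moved some of these counts over 1.5 times. The 5 higher cilium genes became 2 without Cl19 replicate 1, the 6 higher chemokine and cytokine genes 3 without Cl19 replicate 2 or 3 or 3c3 replicate 2 or 3, the 4 higher mesendoderm genes 1 without Cl19 replicate 1 or 2 or 3c3 replicate 2, and the 3 lower Notch genes 0 without Cl19 replicate 1 or 2 or 3c3 replicate 2 or 3. Among the last list, the cyclin gene Ccnd1 fell by 3.61 ± 0.39 in Cl19 and had a change of 0.87 ± 0.39 in 3c3. Blood cell genes held 1 higher and 2 lower of 8. One of them was Csf1r, the receptor of CSF1, which went from 4.15, 3.68 and 3.97 to 9.18, 10.81 and 10.52 in 3c3 and from 4.64, 3.93 and 4.35 to 5.84, 5.17 and 5.0 in Cl19, with Spi1 above background on none of the 6 arrays of 3c3.

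In 3 lists no gene had a higher difference in Cl19. Of 40 genes of cell cycle and DNA replication, 38 fell in each line, with median changes of −1.65 in Cl19 and −1.55 in 3c3. Over all 11173 genes, 4061 fell in Cl19 and 3865 in 3c3. The difference for the cell cycle list was lower in Cl19 for 2 genes (Mybl2 and Cdk2) and higher for none. At an unadjusted p below 0.05 limma counted 4 lower and 0 higher, and the methods' t-test with Benjamini-Hochberg adjustment none in either direction. The other Mybl2 and Cdk2 probes did not pass. Without Cl19 replicate 3 the count was 5 lower (median difference −0.55), and without each other slide 1, with a median of up to 0.21 without Cl19 replicate 2. Cholesterol and fatty acid synthesis genes held 5 lower and 0 higher of 33 by limma (8 and 0 unadjusted, 3 and 0 by the methods' t-test), which is 15.2% lower against 13.2% of all genes. The 5 became 3 without Cl19 replicate 1 or 2 or 3c3 replicate 1 or 3. None of 29 genes of the amino acid and ATF4 response passed limma's test in either direction, with 2 higher and 1 lower unadjusted and none by the methods' t-test with Benjamini-Hochberg adjustment. Here too single slides decided the calls: 3 were lower without Cl19 replicate 1 (median −0.25), 1 lower without 3c3 replicate 1 and 2 higher without Cl19 replicate 3 (median 0.62).

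**Figure D5:**
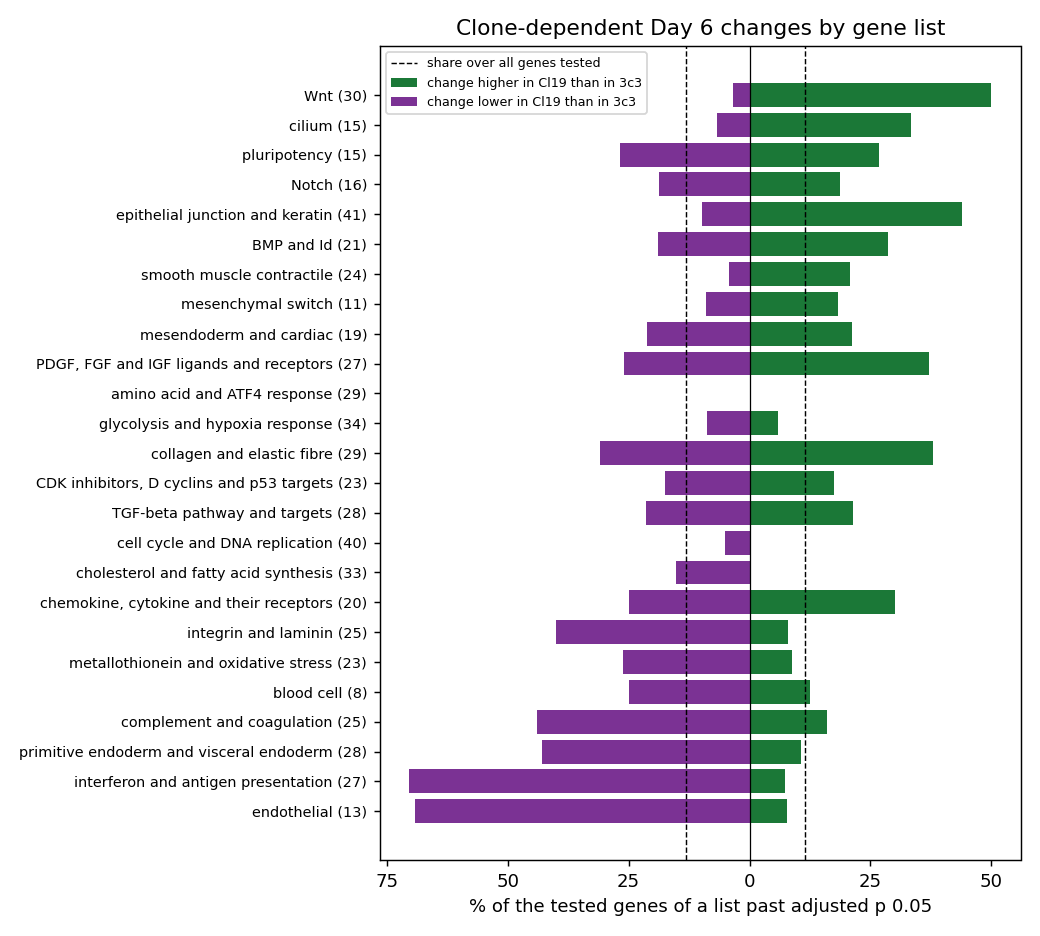
Share of the tested genes of each list (x axis, percent) whose change from d0 to d6 was higher (right, green) or lower (left, purple) in Cl19 than in 3c3 at limma adjusted p below 0.05, with the number of tested genes in brackets. Lists are ordered by their median difference, and dashed lines mark 11.5% and 13.2%, the shares over all 11173 genes. Interferon and endothelial genes reach farthest to the left and Wnt genes farthest to the right.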

How the data were processed

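RNA of Cl19 and 3c3 on d0, d2, d4 and d6 (3 arrays each) and of primary SMCs (2 arrays) was hybridized to 1-colour Agilent rat arrays. The authors deposited, per array, the processed intensity of each feature from Agilent Feature Extraction 10.1.1.1 (per the submitters' processing notes), corrected for background, with substitute values for dim features. A table of log2 values for the series, also deposited, equals the log2 of these intensities to within 5.2e-14 and holds no normalization between arrays.

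Log2 intensities of 43379 gene features were quantile-normalized over 26 arrays, outlier features were left out and features of a probe averaged (41012 probes). Of these, 21110 carry 1 gene symbol, most through RefSeq accessions. Probe positions are those of the array's rn4 annotation. Tested were the 23103 probes that all 3 arrays of some group (of 4) measured well above background. In a line, d0 and d6 of a replicate number share a slide, and their deviations from the group means correlated on all 6 slides (r from 0.11 to 0.52). The 6 slide differences were therefore fitted with limma 3.58.1 in R 4.3.3 (4 residual degrees of freedom), with Benjamini-Hochberg adjustment over all probes. SE are those of limma, and 16 probes missed a slide. Tables were made with Python 3.11.15.

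Classes, members and gene lists were chosen with earlier results of these data known. Named were, in each of the 6 classes, the 4 genes with the largest difference among probes with 1 symbol, above background on all 12 arrays and with non-overlapping slide changes, and the 2 largest among probes above background on all arrays of a group and none of another, given as bounds. List genes, with the brightest probe each, were named as examples, mostly from the largest difference down. The others (Tagln, Pou5f1, Gata4, Gata6, Itga6, Igf1r, Col1a1, Col4a1, Fzd1 and Lef1 among them) were chosen after their values were seen, for their known roles. Some genes are not reported here.

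With 3 slides per line, precision is limited by their number. On simulated data with 23087 probes, 46 of 100 differences of 2 log2 units and 1 of 100 of 1 log2 unit were recovered, with 4 false calls among the rest. Only 200 probes were changed there, against 4814 called in the data, and spreads were shuffled over probes. The adjusted threshold depends on the share of probes changed, so these rates do not give the recovery in the data.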

Additional observations from a re-analysis of the deposited data

Results flagged for a closer look

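The d6 change itself differed between the lines, by limma's test of the difference of changes, at 4814 probes. It had opposite directions past the threshold in both lines at 414 probes that were lower in Cl19 and higher in 3c3 on d6, and at 217 probes that were higher in Cl19 and lower in 3c3. With 3 arrays per group, no test for single outlying arrays was made.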

How the results depend on the processing

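Counts are given in the order clone-dependent probes (4814), Cl19 only (1011), 3c3 only (456) and opposite (631). Leaving out 1 slide at a time gave 3282 to 4756, 787 to 1027, 328 to 598 and 434 to 681. Normexp background correction gave 584 for Cl19 only and 243 for 3c3 only, and probes above background on all 12 arrays alone gave 594 for Cl19 only, fewer probes being tested. Student's t-test, which the paper names for its comparisons, gave 7271 clone-dependent and 362 opposite probes unadjusted. After Benjamini-Hochberg adjustment it gave 3196, 552, 69 and 26, and all 26 opposite probes fell in Cl19 and rose in 3c3. The paper itself selected array probes by the area between time profiles, which was not repeated here. Without a limit on the size of a line's change, 1653 probes were counted for Cl19 only and 849 for 3c3 only, and 263 opposite probes changed by at least 1 log2 unit in each line. Without the replicate block, the 12 arrays gave 4266, 932, 413 and 507, and with the replicate block over all 4 days 6022, 1043, 514 and 697. The other settings left each of the 4 counts within 1.5 times its value, and the cause of the differences was not tested. Members changed more than counts. Without normalization between arrays, 496 of the 1011 Cl19 only, 238 of the 456 3c3 only and 362 of the 631 opposite probes kept their class. With normexp, 362, 180 and 465 did. Of the 217 opposite probes that rose in Cl19, 69 kept their class without normalization and 133 with normexp. Leaving arrays unnormalized moved the median change from −0.22 in each line to 0.08 in Cl19 and 0.06 in 3c3, so changes are relative to that shift. Of 636 differences of the 36 named genes under 18 settings, 632 kept their direction and their side of the threshold and none was reversed. The exceptions were Iqsec2 with normexp (0.26) and with a floor on dim values (1.44), Zdhhc23 without the block over 26 arrays (2.56) and Ssx2ip by the adjusted t-test (2.44). With the mean over a gene's probes, 48 of 50 list counts stayed within 1.5 times, and lower contractile genes became 2 and higher Notch genes 5. Signal near background limits dim probes: their fitted sizes depend on the correction, and for 187 probes that rose in Cl19 alone no level was measured in 3c3.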
